A study of Bos taurus with 6 samples.

Results

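The first megabase of each bovine autosome was examined as the sequence nearest to the centromere. It was taken as every window of 3 kb on chromosomes 1 to 29 whose start lay below base 1000000 of the chromosome. This rule uses position only and gave 9661 windows of the 902984 in the data, with 333 or 334 on each chromosome. Of these, 3732 carried a gene label in the deposited files, from 413 labelled genes, and 5929 carried none. Of the labels 257 are LOC numbers, which stand for predicted genes without a name.

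All bovine autosomes are acrocentric, which means that the centromere lies at one end and that the numbering of bases starts beside it. Mammalian centromeres are surrounded by long arrays of satellite DNA, short units repeated in tandem, which are usually densely methylated in somatic cells and are hard to place in a genome assembly. Methylation at such repeats is laid down and kept by the DNA methyltransferases and is known for keeping repeats silent and chromosomes stable.

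The libraries came from dermal fibroblasts, the collagen-producing cells of the skin, of 3 Holstein heifers that were sampled at 5 and again at 16 months of age. The cultures were at passage 5, received no treatment, and the animals had been chosen by the study as mid-level responders to lipopolysaccharide, so that each age has 1 library per animal (n = 3). DNA was sonicated and fragments with methylated CpG sites were pulled down with methyl-binding proteins (MIRA-Seq), so the reads in a window rise both with its methylation and with its number of CpG sites. The libraries hold DNA, so the identity of the cells could not be checked against expressed markers.

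Counted reads ranged from 19.9 to 43.6 M per library, of which 429724 to 1040708 fell in the first megabases. Levels are given as counts per M reads (CPM) over all windows of a library, and the median window of the first megabases held 4 reads. Of the 9661 windows 95 had no read in any library, which allows up to 0.151 CPM in the shallowest library and 0.0688 CPM in the deepest (3 reads, counting error only). All 6 libraries had reads in 5041 of the windows.

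The first megabases held more signal per window than the rest of the autosomes, and most of the excess lay in few windows. At 5 months the mean level per window came to 2.23, 2.18 and 2.00 CPM for animals 1, 2 and 3, and at 16 months to 2.47, 2.64 and 2.03 CPM. The mean over libraries was 2.26 ± 0.25 CPM (SD, n = 6), against 0.963 ± 0.0271 CPM in the other 827614 autosomal windows, a ratio of 2.35 (2.12 to 2.75). The first megabases made up 1.15% of the autosomal windows and held 2.66% of the autosomal counts. The difference was positive in 6 of 6 libraries (exact sign-flip test, two-sided, 6 libraries, p = 0.0312, adjusted over 5 differences 0.0312, the smallest p possible). Since each animal gave 2 of the libraries, the same exact test was also run over the 3 animals, where it gave p = 0.25, the smallest it can give. Here and below, these tests ask whether a difference between the same windows repeats over libraries or animals. They do not measure the spread between chromosomes, of which 13 were above and 10 below the rest of their chromosome in all 6 libraries.

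A typical window did not show this excess. The median window of the first megabases had 0.129 CPM and that of the other autosomal windows 0.149 CPM, and the median of the first megabases was higher in 0 of 6 libraries. These medians are a few reads per window, and in 2 libraries they were equal. The difference of medians had p = 0.125 (exact two-sided sign-flip test, 6 libraries). Windows with a mean of at least 10 CPM made up 3.36% of the first megabases and 0.922% of the other autosomal windows. Windows with a mean under 0.1 CPM made up 43.4% of the first megabases and 37.2% of the others, so both ends of the range were filled more in the first megabases. Without the 1% of autosomal windows with the most signal, the mean was 0.586 CPM against 0.495 CPM, and without chromosome 14, left out after its values were seen, 1.51 CPM against 0.975 CPM, in both cases higher in 6 of 6 libraries.

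The opposite, telomere-side end of the chromosomes carried more signal, and it was spread over many windows. The last megabases had a mean of 4.69 ± 1.36 CPM (SD, n = 6) and a median window of 2.20 CPM. The first megabases were lower than the last by 2.43 CPM, in 6 of 6 libraries (exact two-sided sign-flip test, adjusted p = 0.0312, and p = 0.25 over the 3 animals). The second megabases had a mean of 1.43 ± 0.376 CPM. The first megabases exceeded them by 0.830 CPM in 6 of 6 libraries (adjusted p = 0.0312, and p = 0.25 over the 3 animals, the same exact test). That last difference rested on few windows. Without chromosome 14 it was 0.215 CPM, positive in 5 of 6 libraries (exact p = 0.156), without the 1% of autosomal windows with the most signal it was -0.0527 CPM, positive in 2 of 6, and over medians it was -0.0274 CPM.

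**Figure D1:**
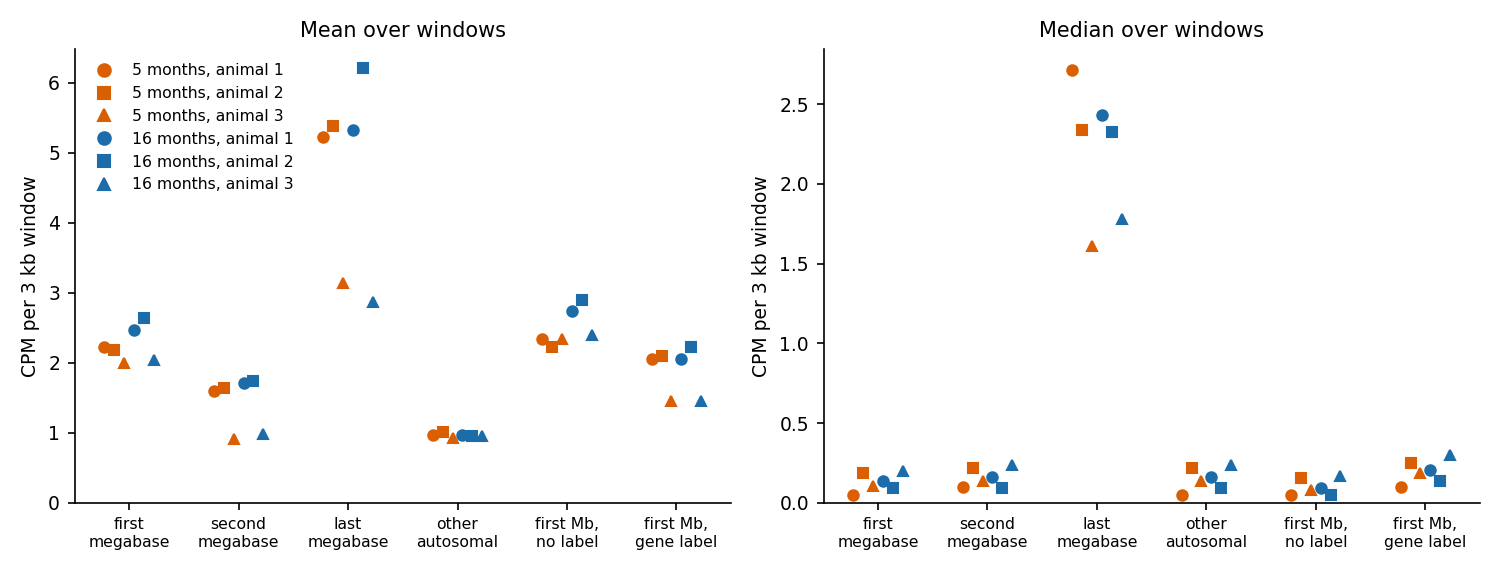
Mean (left) and median (right) CPM per 3 kb window in each of the 6 libraries, for the first, second and last megabase of the 29 autosomes, all other autosomal windows, and the windows of the first megabases without and with a gene label. Colours give the age and shapes the animal. By the mean the first megabase lies at 2.00 to 2.64 CPM, above the other autosomal windows, and by the median it does not.

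With all windows counted, signal was highest in the 100 kb next to the chromosome start. The 964 windows of the first 100 kb had a mean of 5.32 ± 0.575 CPM (SD, n = 6) and the 8697 windows of the remaining 900 kb a mean of 1.92 ± 0.318 CPM. The difference of 3.4 CPM was positive in 6 of 6 libraries (exact two-sided sign-flip test, adjusted p = 0.0312, and p = 0.25 over the 3 animals). The medians were 0.185 and 0.126 CPM, in the same order in 6 of 6 libraries. Without the 1% of autosomal windows with the most signal the difference was 0.171 CPM (0.740 against 0.570 CPM), still positive in 6 of 6 libraries. The first 100 kb then hardly differed from the bin of 900 to 1000 kb, which had 0.733 CPM. That bin was the higher one at both ages in animals 1 and 2, and the lower one in animal 3. Without chromosome 19, left out after its values were seen, the first 100 kb exceeded the remaining 900 kb by 1.99 CPM. The first window of the chromosomes had a mean of 25.5 CPM over the 29 chromosomes, the second 17.8, the fifth 6.82 and the tenth 4.53 CPM. The median first window had 1.53 CPM, so this mean rested on some of the chromosomes.

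The first window held at least 10 CPM on 13 chromosomes and under 1 CPM on 13 others. It was highest on chromosome 9 (147 CPM), chromosome 16 (119 CPM), chromosome 5 (109 CPM), chromosome 13 (87.7 CPM) and chromosome 26 (78.5 CPM). On chromosome 8 its mean was 0 CPM, and on chromosomes 1, 3 and 29 it was 0.0129, 0.0291 and 0.0269 CPM. The first 100 kb exceeded the remaining 900 kb on 16 of 29 chromosomes. These first windows and the comparison by chromosome were summarised after the values were seen.

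**Figure D2:**
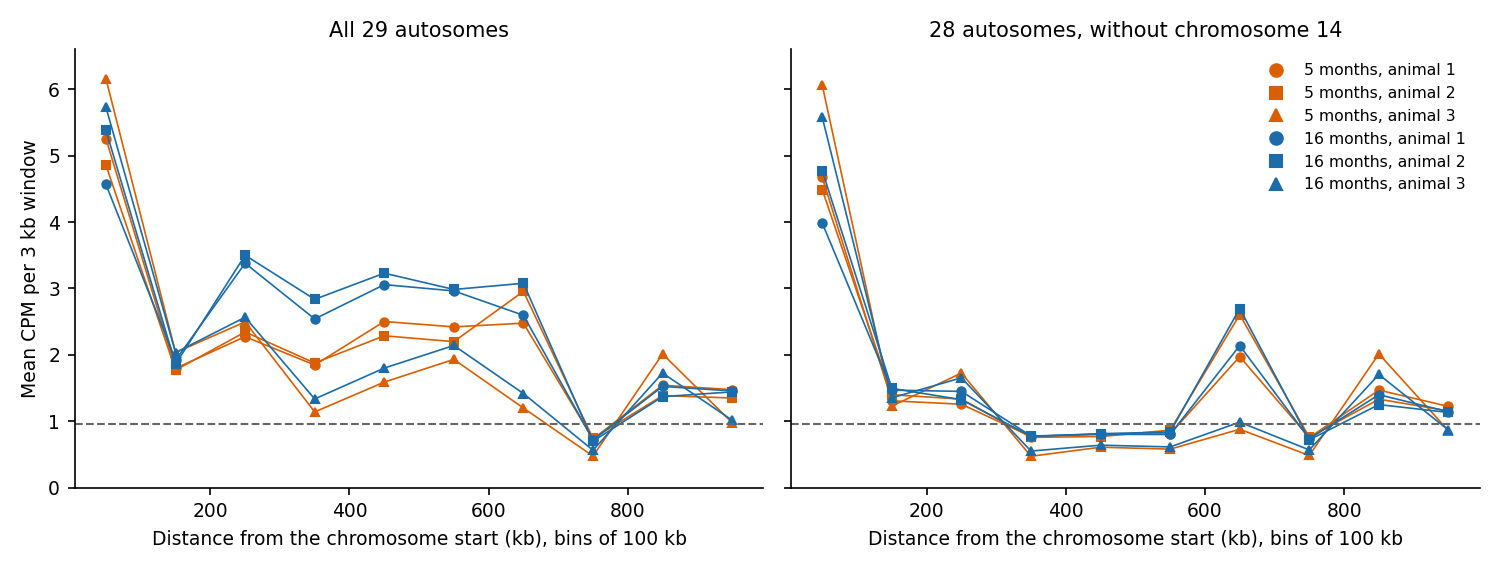
Mean CPM per 3 kb window in bins of 100 kb from the chromosome start, for each of the 6 libraries (colour, age; shape, animal), over 29 autosomes (left) and without chromosome 14 (right). The dashed line is the mean of the other autosomal windows. The first bin stands at 5.32 CPM over 29 autosomes and 4.92 CPM without chromosome 14, and the bins from 200 to 600 kb fall from between 1.93 and 2.76 CPM to between 0.686 and 1.46 CPM when chromosome 14 is left out.

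Few windows held most of the counts. The 10 windows with the most signal held 17.0 ± 4.72% of the counts of the first megabases (SD, n = 6), with 12.8, 17.7 and 13.0% at 5 months (animals 1, 2 and 3) and 21.1, 23.9 and 13.4% at 16 months. In animals 1 and 2 the share was higher at 16 months, and in animal 3 the ages lay close together. The 97 windows with the most signal, 1% of the windows, held 54.1 ± 3.88%. The top 1% of the other autosomal windows held 49.5 ± 5.10% of theirs, and the top 1% of the last megabases 15.6 ± 2.33%. Ranked by mean CPM, 80 windows held 50% of the summed signal and 1116 held 90%.

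The 97 windows lay on 17 chromosomes, with 45 of them on chromosome 14 and 37 within the first 100 kb of a chromosome. No gene label was given to 80 of the 97. The files also give the highest depth of coverage within a window, and this depth divided by the read count approaches 1 where all reads of the window overlap one position. Its median over the 97 windows was 0.321, its range 0.120 to 0.980, and 18 windows were above 0.5. Whether PCR copies or reads that match several places add to these windows was not tested.

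Chromosomes differed widely in the signal of their first megabase, and the order was broadly alike in the 6 libraries. Spearman correlations of the 29 chromosome means lay between 0.80 and 0.984 for pairs of libraries. Animal 3 was less like the others. Its libraries correlated at 0.80 to 0.904 with those of animals 1 and 2, and all other pairs at 0.9655 to 0.984. Chromosome 14 was highest at 23.3 ± 6.61 CPM per window (SD, n = 6), and its first megabase alone held 35.0% of the counts of all 29. Chromosome 25 followed at 6.84 ± 2.37 CPM, chromosome 19 at 4.74 ± 0.970 CPM, chromosome 3 at 3.67 ± 1.90 CPM and chromosome 13 at 2.74 ± 1.59 CPM. The ranges of these last 4 over libraries overlapped, whereas the lowest library of chromosome 14 (16.3 CPM) was above every library of every other chromosome. The median chromosome had 0.993 CPM, and the 5 highest held 62.4% of the counts.

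The 5 chromosomes reached their levels in different ways. On chromosome 3 a single window inside DCAF6, which encodes a substrate adaptor of a cullin ubiquitin ligase, held 92.8% of the signal. On chromosome 19 an unlabelled run from chr19:875-51874 (17 windows, 62.7 ± 14.2 CPM) and a run from chr19:54875-75874 (7 windows, 53.1 ± 9.61 CPM) lay in the first 100 kb, and the remaining 900 kb had 0.437 CPM. On chromosome 13 a run of 8 windows at chr13:864497-888496 inside PLCB1, the gene of a phospholipase C that signals below G protein-coupled receptors, had 82.4 ± 51.5 CPM. Chromosome 25 had signal along the whole megabase, with a median window of 5.82 CPM against 0.328 CPM in the rest of that chromosome. Of its 333 windows 211 carried a gene label, against 46 of 333 on chromosome 14.

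The first megabases of chromosomes 23, 6 and 21 were lowest, at 0.10 ± 0.0312, 0.139 ± 0.0234 and 0.141 ± 0.0303 CPM per window (SD, n = 6), and the ranges of these 3 over libraries overlapped. The rest of the same chromosomes had 0.90, 0.688 and 0.923 CPM. The mean of the first megabase was above that of the rest of its own chromosome in all 6 libraries on 13 chromosomes, below it in all 6 on 10, and mixed on 6. By the median it was above in all 6 libraries on 10 chromosomes and below on 16.

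**Figure D3:**
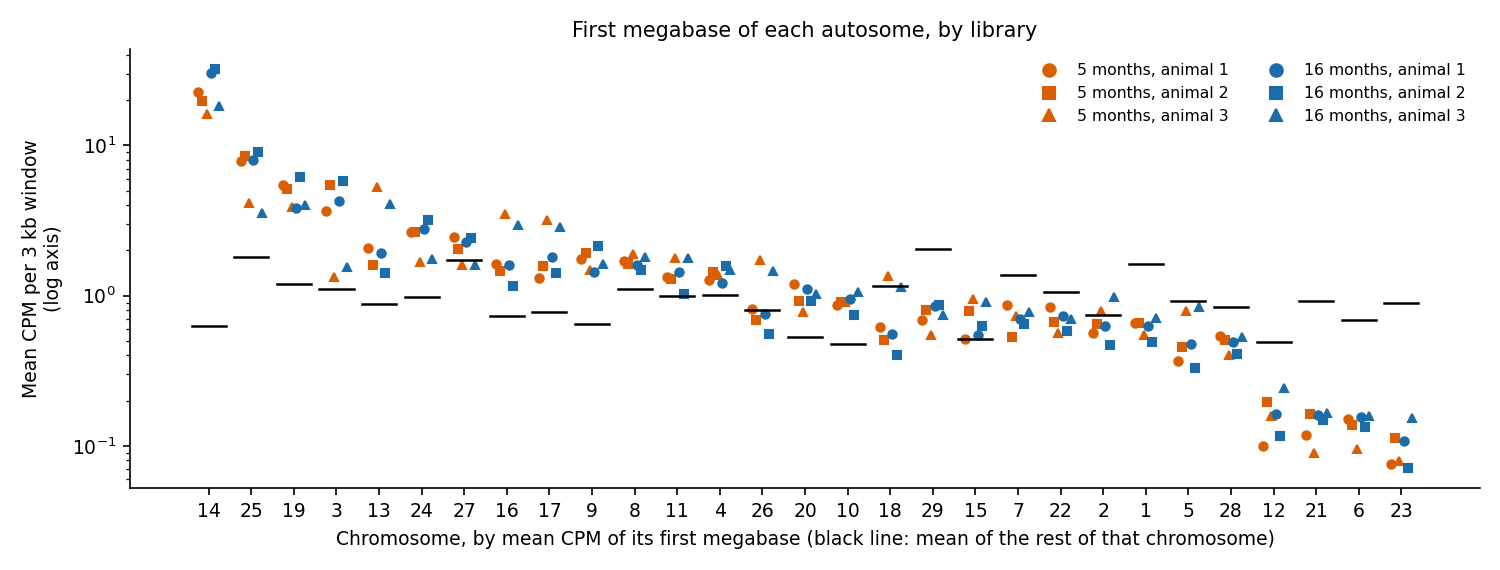
Mean CPM per 3 kb window of the first megabase of each autosome in each of the 6 libraries (log axis; colour, age; shape, animal), ordered by the mean over libraries, with a black line at the mean of the rest of that chromosome. Chromosome 14 stands alone at 16.3 to 32.2 CPM, and chromosomes 12, 21, 6 and 23 lie below 0.3 CPM in every library and below their own line.

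Chromosome 14 had 98 of its 333 windows at 10 CPM or more. By bins of 100 kb its signal was 16.6 and 16.4 CPM per window in the first 200 kb, 39.6, 37.0, 49.8 and 48.8 CPM from 200 to 600 kb, and 13.8 CPM from 600 to 700 kb. It then dropped to 0.231 CPM from 700 to 800 kb, where 18 of 33 windows carry a gene label, and returned to 3.38 and 7.57 CPM in the last 200 kb. Just past the limit, from 1000 to 1100 kb, it was 16.1 CPM, so the high signal of this chromosome did not end at the limit used here. Over all chromosomes the last windows below the limit had a median of 0.190 CPM and the first windows above it 0.129 CPM (29 each).

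Only 46 of the 333 windows of chromosome 14 had a gene label, from 10 genes. Among them were the 3 genes with the most signal per window of all genes with at least 2 windows: LOC100299144 (54.6 ± 21.3 CPM, SD, n = 6), LOC781635 (51.0 ± 14.1 CPM) and LOC784083 (20.5 ± 6.97 CPM), predicted genes whose function is not given by their labels. A single window held 45.6, 94.2 and 60.3% of the signal of these genes.

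**Figure D4:**
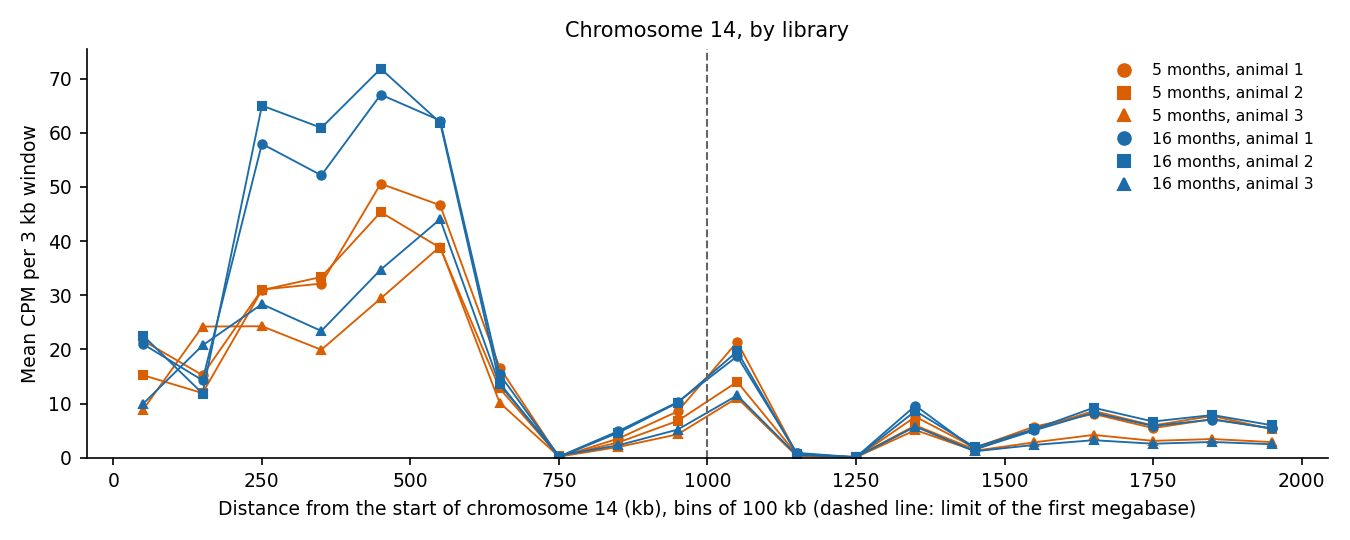
Mean CPM per 3 kb window along the first 2000 kb of chromosome 14 in bins of 100 kb, one line per library (colour, age; shape, animal), with a dashed line at the limit of the first megabase. From 200 to 600 kb the 16-month cultures of animals 1 and 2 run above all other libraries, at up to 71.8 CPM, and all lines fall to under 0.5 CPM at 700 to 800 kb.

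The window with the most signal was chr3:692610-695609 inside DCAF6. Animals 1, 2 and 3 reached 1140, 1711 and 366 CPM there at 5 months and 1327, 1867 and 401 CPM at 16 months. Animal 3 was lowest at both ages, and in each animal the ages differed by less than the animals did. This window held 5.20% of the counts of the first megabases, and the median of the 62 DCAF6 windows was 0.127 CPM. Highest depth over read count came to 0.310 there.

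Of the other 9 windows among the 10 highest, 7 were on chromosome 14 and 2 on chromosome 17, and none carried a gene label. The second, chr14:277147-280146, stood at 182, 294 and 240 CPM at 5 months and at 598, 871 and 275 CPM at 16 months. The next 4, at 321, 319, 302 and 298 CPM, started at bases 575547, 490847, 397447 and 497047 of chromosome 14. The windows starting at bases 214147 and 394447 of the same chromosome had means of 254 and 238 CPM.

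The pair on chromosome 17 showed another order of the libraries. The window chr17:290494-293493 stood at 150, 173 and 515 CPM in animals 1, 2 and 3 at 5 months and at 230, 161 and 431 CPM at 16 months, and chr17:269494-272493 had 146, 200 and 367 CPM and 223, 178 and 329 CPM. In both, animal 3 was highest at both ages. Highest depth over read count came to 0.666 and 0.330.

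Unlabelled windows of the first megabases had a higher mean than labelled ones, but a lower median. At 5 months the unlabelled mean was 2.34, 2.23 and 2.34 CPM for animals 1, 2 and 3, and the labelled mean 2.06, 2.10 and 1.46 CPM. At 16 months the unlabelled mean was 2.74, 2.90 and 2.40 CPM and the labelled mean 2.05, 2.22 and 1.45 CPM. The difference of 0.602 CPM was positive in 6 of 6 libraries (exact two-sided sign-flip test, adjusted p = 0.0312, and p = 0.25 over the 3 animals). The median went the other way in 6 of 6 libraries, with 0.0988 CPM for unlabelled and 0.198 CPM for labelled windows. Leaving out chromosome 19 gave 0.337 CPM, positive in 4 of 6 libraries, and limits of 0.5 and 2 Mb in place of 1 Mb gave 2.08 and 0.255 CPM. Without chromosome 14 the difference in means turned to -0.40 CPM, positive in 2 of 6 libraries, those of animal 3. Without the 1% of autosomal windows with the most signal it was -0.320 CPM, positive in 0 of 6 libraries.

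Outside the first megabases the labelled and unlabelled autosomal windows had means of 1.01 and 0.930 CPM, closer together than in the first megabases. Within the first megabases the 993 labelled windows that hold coding sequence had a mean of 2.87 ± 0.813 CPM and a median of 0.515 CPM, and the 2739 labelled windows without it 1.53 ± 0.181 and 0.152 CPM (SD, n = 6). The 406 windows in which a gene starts on its strand had a mean of 2.02 ± 0.557 CPM and a median of 0.148 CPM.

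Of the 413 genes, 114 had at least 1 CPM per window, and the median gene had 0.222 CPM. Of the 15 genes with the most signal per window, among those with at least 2 windows, 9 were on chromosome 25 and 3 on chromosome 14. The chromosome 25 genes were SOLH (13.0 ± 5.03 CPM), which encodes a calpain-like protein, MPG (12.6 ± 5.03 CPM), a DNA glycosylase of base excision repair, RHOT2 (12.4 ± 4.42 CPM), a mitochondrial GTPase, PIGQ (11.9 ± 4.86 CPM), of glycosylphosphatidylinositol anchor synthesis, CHTF18 (11.8 ± 4.36 CPM), of a clamp loader used in chromatid cohesion, ITFG3 (11.6 ± 4.42 CPM), PDIA2 (11.01 ± 5.03 CPM), a protein disulfide isomerase, TEKT4 (10.998 ± 4.36 CPM), a tektin of cilia and flagella, and MSLNL (10.8 ± 3.69 CPM). In unscaled CPM the 2 libraries of animal 3 were the lowest in all 9, which also held for 102 of the 413 genes (24.7%) and for 53.7% of all windows tested. For MPG, animals 1, 2 and 3 had 15.3, 15.3 and 7.21 CPM at 5 months and 14.4, 17.9 and 5.41 CPM at 16 months.

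The other 3 genes of the 15 were DCAF6 (18.5 ± 10.3 CPM), LOC100847487 on chromosome 9 (16.6 ± 3.02 CPM) and LOC100848948 on chromosome 22 (15.6 ± 3.105 CPM). DCAF6 owed 99.1% of its signal to 1 window, while in SOLH, MPG and PIGQ the window with the most signal held 32.4, 39.3 and 36.5%. On chromosome 25, 50 of 54 genes had at least 1 CPM per window. In 36 of these 54 genes the first window on the gene's strand was below the mean of the gene, with a median of 3.83 CPM against 7.58 CPM. It was low in some, with 2.42 CPM in CHTF18, 3.79 CPM in RHOT2 and 4.73 CPM in PIGQ, and higher than the gene's mean in others, with 16.9 CPM in SOLH.

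Age was compared within animals to ask whether the first megabases gain or lose signal between 5 and 16 months. Their share of the autosomal counts came to 2.62, 2.47 and 2.48% for animals 1, 2 and 3 at 5 months and to 2.91, 3.11 and 2.42% at 16 months. It was lower at 5 months in animals 1 and 2 and higher in animal 3, with a mean difference of -0.292 percentage points (exact two-sided sign-flip test over 3 animals, p = 0.5, where the smallest possible is 0.25). Without chromosome 14 the difference was 0.00594 percentage points. The mean of unlabelled windows was lower at 5 months in 3 of 3 animals, by 0.396, 0.673 and 0.0564 CPM (exact p = 0.25). Without chromosome 14 that mean difference was 0.0366 CPM, with 5 months higher. The mean of labelled windows differed by -0.0357 CPM, with 5 months higher in 2 of 3 animals (exact p = 1).

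By chromosome, the first megabase moved the same way in all 3 animals on 9 of 29 chromosomes, 5 higher and 4 lower at 5 months. For the means of the rest of the chromosomes the same held for 13.8%, or 4 of 29. With no effect of age, 3 animals agree in direction with a probability of 0.25. Without the 1% of autosomal windows with the most signal, 1 of 29 first megabases moved the same way in all animals. No chromosome passed the test, with a lowest adjusted p of 0.806 (exact sign-flip test, 29 chromosomes), which 3 animals could not have brought below 0.25. Chromosome 14 had 22.6, 19.8 and 16.3 CPM per window at 5 months and 30.5, 32.2 and 18.3 CPM at 16 months.

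Window by window, 1733 of the 9661 windows had at least 1 CPM in at least 3 libraries and were tested, 17.9% of them against 11.9% of the other autosomal windows. A window was called at a false discovery rate (FDR) below 0.1 and a change of at least 2-fold in edgeR's quasi-likelihood test with the animal as a block. Of the 1733, 6 were called (0.346%), against 0.185% of all 104658 windows tested. Of these 6, 1 was higher at 5 months and 5 (0.289% of those tested, against 0.0803% of all windows tested) were higher at 16 months, and those 5 were all on chromosome 14. Without chromosome 14 in the fit, an alternative added after its values were seen, 1 of 1549 windows was called (0.0646%), against 183 of all 101696 windows tested. The higher share of calls in the first megabases thus rested on chromosome 14. The fit without the animal block called 0 of the 1733 and 0 of all 104658. Of these, 23 and 1282 had an unadjusted p under 0.05.

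The following levels are CPM over the tested windows, scaled by TMM factors, and log2 differences are 5 minus 16 months with their SE. The window chr14:277147-280146 had 167, 312 and 389 CPM at 5 months in animals 1, 2 and 3 and 622, 929 and 415 CPM at 16 months, a difference of -1.20 ± 0.29 (FDR 0.0374, edgeR). Animals 1 and 2 differed clearly between ages and animal 3 hardly did, and the groups were separated by the narrow gap between the 2 libraries of animal 3. The window chr14:575547-578546 had 134, 199 and 362 CPM at 5 months and 519, 687 and 345 CPM at 16 months (-1.25 ± 0.29, FDR 0.0317, edgeR). Its groups overlapped, and animal 3 went the other way.

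The window chr14:397447-400446 had 136, 244 and 247 CPM at 5 months and 504, 659 and 273 CPM at 16 months (-1.16 ± 0.29, FDR 0.0439, edgeR). In chr14:346147-349146 the levels were 38.7, 84.6 and 65.1 CPM and 141, 222 and 81.2 CPM (-1.20 ± 0.27, FDR 0.0225, edgeR). The fifth, chr14:385447-388446, had 6.76, 14.5 and 11.9 CPM and 21.4, 33.3 and 15.9 CPM (-1.09 ± 0.25, FDR 0.0240, edgeR). In each of these 3 all animals were higher at 16 months, animal 3 by the least. Highest depth over read count came to 0.520, 0.361 and 0.627, and to 0.336 and 0.338 in the 2 windows before.

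The call on chromosome 28 went the other way. The window chr28:97865-100864, which has no gene label, had 4.09, 1.49 and 5.07 CPM at 5 months and 1.24, 0.743 and 2.64 CPM at 16 months (1.25 ± 0.27, FDR 0.0121, edgeR). It was higher at 5 months in 3 of 3 animals, although the groups overlapped.

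DESeq2's size factors left 6 windows called and library size alone 5, the ones on chromosome 14, while other choices ended calls. Over all 104658 windows tested these scalings called 201 and 99, against 194 in the main fit. None of the 6 was called with TMM factors from all windows, without the filter on low counts or without animal 1. Over all windows tested these fits called 25 of 104658, 2 of 884574 and 13 of 104658. Without animal 2 the window on chromosome 28 was the only one of the 6 still called. It was among 2 calls in the first megabases, against 77 over all 104658 windows tested. With a filter of 0.5 CPM it was the only call there, against 96 over all 179683 windows then tested. Without animal 3 the count rose to 31, with 9 higher and 22 lower at 5 months. The count over all 104658 windows tested rose as well, to 1267, with 714 higher and 553 lower at 5 months. DESeq2 called 1 of the 1733, chr14:346147-349146, and 15 of all 104658.

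Of the 10 windows with the lowest unadjusted p, the other 4 missed the 2-fold limit or the FDR. They were chr25:106501-109500 (0.99 ± 0.24, FDR 0.0429), chr14:899747-902746 (-0.85 ± 0.21, FDR 0.0435), chr27:288967-291966 in LOC518907 (-0.92 ± 0.23, FDR 0.0544) and chr14:487747-490846 (-0.94 ± 0.27, FDR 0.123), all by edgeR. In the last of these, highest depth over read count came to 0.980. The DCAF6 window differed by -0.19 ± 0.28 (FDR 0.986) and the pair on chromosome 17 by -0.11 ± 0.27 and -0.12 ± 0.27 (FDR 0.999 and 0.998, edgeR).

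As a group, 132 of the 184 tested windows of chromosome 14 had a log2 difference below 0, with a median of -0.19. On the other 28 chromosomes 873 of 1549 were below 0, with a median of -0.03, and over all 104658 windows tested the median was 0.02. Above 0 were 42.0% of the tested windows of the first megabases and 52.6% of all windows tested. The pooled count hides differences between chromosomes, and chromosome 14 was not alone in its direction. Below 0 were 8 of 8 tested windows on chromosome 21 (median -0.45), 11 of 12 on chromosome 6 (-0.28) and 11 of 13 on chromosome 17 (-0.18). So were 13 of 17 on chromosome 12 (-0.21), 29 of 41 on chromosome 29 (-0.20) and 87 of 126 on chromosome 27 (-0.095). On chromosomes 25, 8 and 11 the counts were 110 of 272 (0.04), 38 of 99 (0.09) and 41 of 89 (0.04). These chromosomes were picked with their values in view, and neighbouring windows may not be independent. Of the tested windows of the first megabases 7.33% had an unadjusted p under 0.05, close to the 7.10% of all windows tested.

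**Figure D5:**
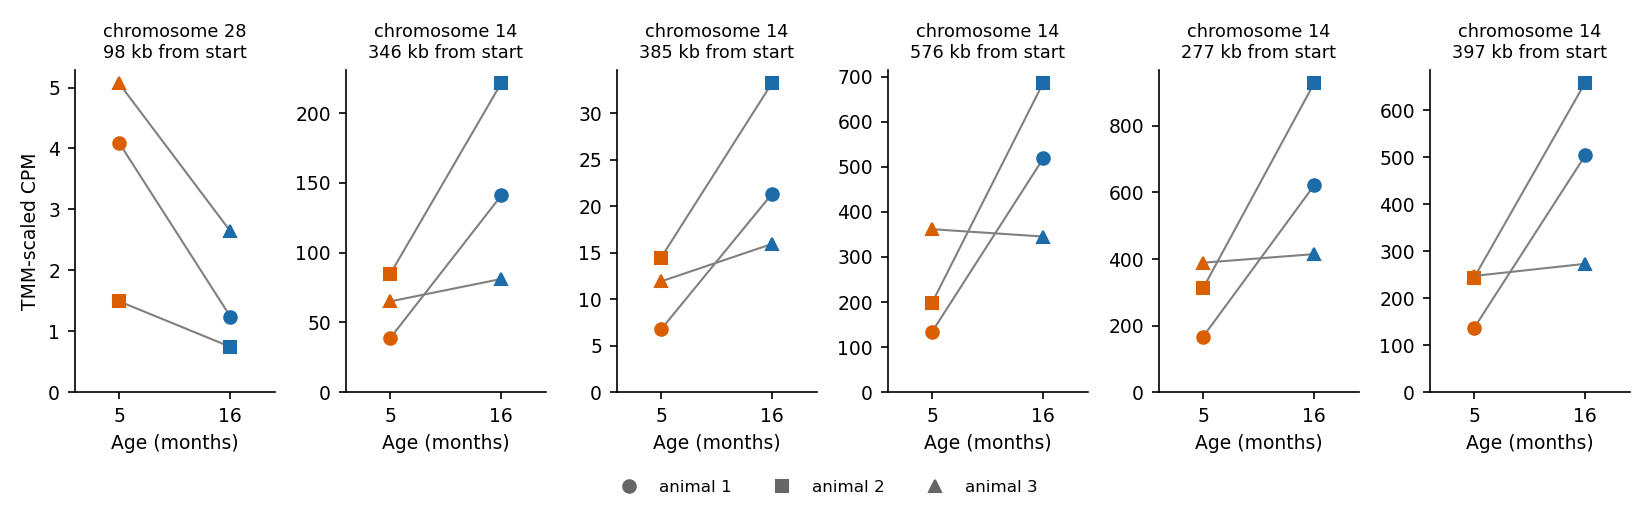
TMM-scaled CPM of the 6 windows of the first megabases called by age, at 5 and 16 months, with a line per animal (shapes, animals 1 to 3) and a linear axis from 0 in each panel. In the 5 panels of chromosome 14 the lines of animals 1 and 2 climb steeply to 16 months and that of animal 3 changes less, with a modest rise in the panels of the windows that start at bases 346147 and 385447, and in the panel of chromosome 28 all 3 lines fall.

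The animals differed as well. A contrast of animal 3 with the mean of animals 1 and 2, with age as a block, was added after the values were seen, and each animal has only its 2 libraries. It called 466 of the 1733 windows (26.9%) in edgeR's quasi-likelihood test at the same thresholds, against 16.1% of all windows tested. With TMM factors 434 of them were higher and 32 lower in animal 3, whereas scaling by library size alone gave 136 higher and 402 lower, and TMM factors from all windows 8 higher and 29 lower. The direction followed that of all windows tested. With TMM factors 93.1% of the calls were higher in animal 3, against 91.1% of all calls. Library size alone gave 25.3% against 16.2%. These scalings moved the median of all tested windows from -0.01 to -0.54 and -0.72 on the log2 scale, and they call other windows: of the 466, 168 were also called with library size alone. The sign of the difference was the same for all 466 under the 3 scalings. This is no separate support, since a called window differed by at least 2-fold, more than these shifts of the median. With library size alone 31.0% of the tested windows of the first megabases and 24.0% of all tested windows were called. With TMM factors from all windows the shares lay close together, at 2.14% and 1.78%.

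Of the 18 runs of at least 5 neighbouring windows of 10 CPM or more, animal 3 was above the mean of the other animals in 5 and below it in 13, with ratios in CPM from 0.427 to 2.94. In CPM the PLCB1 run on chromosome 13 had 62.8, 44.1 and 167 CPM at 5 months in animals 1, 2 and 3 and 56.2, 40.1 and 124 CPM at 16 months. The unlabelled run at chr16:2981-23980 had 51.3, 34.5 and 136 CPM and 44.8, 30.4 and 100.4 CPM. The run at chr18:2198-17197 had 34.0, 23.6 and 81.6 CPM and 28.2, 20.3 and 64.02 CPM. Animal 3 was at 2.87, 2.94 and 2.75 times the mean of the other animals in these 3 runs, which were picked for this after their values were seen.

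On chromosome 14 the runs went both ways. The unlabelled run at chr14:118147-145146 was at 2.43 times the other animals in animal 3, and the run at chr14:487747-518046 at 0.492 times. The DCAF6 window was lower in animal 3, by a log2 difference of -1.34 with TMM factors (FDR 0.000557, edgeR), and chr17:290494-293493 was higher, by 2.03 (FDR 1.09e-09, edgeR). The FDRs of this contrast rest on the spread between the 2 libraries of each animal. They do not measure the spread between animals, since 1 animal is set against the other 2. In CPM, animal 3 was above all 4 other libraries in 261 of the 1733 tested windows (15.1%, against 7.63% of all windows tested) and below all 4 in 835 (48.2%, against 53.7%).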

How the data were processed

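MIRA-Seq libraries of 3 animals at 5 and 16 months of age were analysed. After trimming and filtering, the authors used NextGENe to align reads to the cattle assembly UMD v3.1, cut it into successive windows of 3 kb and deposited the raw count of reads in each. The deposited files also give the highest depth of coverage per window, an unscaled signal, of which only its ratio to the read count was used. The treatment of PCR copies and of reads with several matches is not given in the sources, so counts may not be independent molecules. Windows run over chromosome ends, so the first start on a chromosome varies. Positions and gene labels are those of the files, and 182 of the 413 labels matched a RefSeq symbol and 14 a synonym. No genome of this build was used here, and no sequence is shown.

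Analysis used R 4.3.3, edgeR 4.0.16, limma 3.58.1, DESeq2 1.42.0, Python 3.11.15, numpy 2.4.6, pandas 2.3.3 and matplotlib 3.10.9. A window of any chromosome was tested if 3 or more of the 6 libraries reached 1 CPM. The quasi-likelihood test of edgeR was fitted on all of them with TMM factors and a term for each animal, and p-values were adjusted by Benjamini and Hochberg's method over the whole table. Positive log2 differences are higher at 5 months, and an SE is the difference divided by the root of F. Libraries are paired because the same animal was sampled at both ages, and the deviations of their 2 libraries from the age means correlated at 0.325, 0.580 and 0.761. Region means were compared with exact two-sided sign-flip tests. The scripts were tested on simulated data.

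The windows named are the 10 with the highest mean CPM, those called by age and the 10 with the lowest p. The chromosomes named are the 5 highest and 3 lowest, and the genes the 15 with the highest mean CPM per window. Runs are at least 5 neighbouring windows of 10 CPM or more. Any other name was picked with its values in view. The members and lists were chosen with earlier results of these data known. Alternatives were other tests, scalings, filters, summaries and limits, no block, and leaving out each animal.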

Additional observations from a re-analysis of the deposited data

How the results depend on the processing

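Over medians instead of means, the first megabases differed from the other autosomal windows by -0.0191 CPM, from the last megabases by -2.07 CPM (adjusted p = 0.0521, exact sign-flip test) and from the second megabases by -0.0274 CPM. By the same measure the first 100 kb exceeded the rest by 0.0591 CPM (adjusted p = 0.0521, exact test), and unlabelled minus labelled windows came to -0.0988 CPM. Before adjustment the exact sign-flip p was 0.0312 for the last megabases, the first 100 kb and the labels. It was 0.125 for the other autosomal windows and 0.0625 for the second megabases. Without the 1% of autosomal windows with the most signal, the first minus the second megabases came to -0.0527 CPM, unlabelled minus labelled windows to -0.320 CPM and the age difference of unlabelled windows to -0.0165 CPM, and 1 of 29 chromosomes moved the same way in all animals. The 1% of windows with the most signal held 54.1% of the counts, against 17.0% in the 10 windows. Without chromosome 14, chosen after seeing the data, the 5 differences were 0.533, -3.29, 0.215, 3.79 and -0.40 CPM (exact adjusted p = 0.0521, 0.0521, 0.156, 0.0521 and 0.156), and over medians -0.0229, -2.17, -0.0139, 0.0504 and -0.104 CPM, in the order first megabases minus other autosomal windows, minus last megabases, minus second megabases, first 100 kb minus rest, and unlabelled minus labelled. The age difference of unlabelled windows was then 0.0366 CPM. Leaving out each animal kept the direction of the 5 differences.

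The 6 windows called by age became 1 with DESeq2, 0 with TMM factors from all windows, 0 without the CPM filter, 1 with at least 0.5 CPM in at least 3 libraries, 0 without the replicate block, 1 without chromosome 14 and between 0 and 31 when each animal was left out. Over all windows tested, the 194 calls became 15, 25, 2, 96, 0, 183 and between 13 and 1267 in the same order. The pair on chromosome 17 turned direction without the block, to 0.12 at base 290494 and 0.033 at base 269494, and ranged from -0.35 to 0.23 and from -0.31 to 0.22 when an animal was left out. TMM factors from all windows left 37 windows called between animals (2.14%, against 1.78% of all windows tested). The cause of these changes was not tested, beyond what fewer samples or windows give by construction. The median window held 4 reads per library, so at this depth windows of low signal could not be tested.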

Other observations

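Apart from the genes with the most signal, 2 well-known gene clusters lie in the first megabases and were picked after their values were seen. On chromosome 25 the alpha-globin cluster, whose genes encode the alpha chains of haemoglobin and are known to be used in red blood cell precursors, had low signal against a median of 7.58 CPM per window over the 54 labelled genes of that megabase. The window labelled HBA had 0.0764 ± 0.0490 CPM (SD, n = 6), HBQ1 0.232 ± 0.0622, HBA1 0.391 ± 0.309, HBM 1.29 ± 0.659 and HBZ, the embryonic member, 1.38 ± 0.336 CPM per window. NPRL3, a gene of a growth control complex whose introns are known to hold globin enhancers, had 6.34 ± 2.19 CPM per window, LUC7L, a splicing gene on the other side of the cluster, 2.19 ± 0.473 CPM, and farther away AXIN1, a scaffold of beta-catenin breakdown, 10.4 ± 3.86 CPM, and SOX8, a transcription factor gene, 6.81 ± 2.79 CPM. The first window of NPRL3 had 0.322 CPM. Low signal was not confined to the globin genes. In the same megabase LOC789192 had 0.691 ± 0.150 CPM and POLR3K 1.11 ± 0.788 CPM per window, both below HBM and HBZ.

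On chromosome 21, one of the chromosomes with the lowest signal, 5 genes lie that are imprinted in other mammals, where only the copy from the father is used. The window of MKRN3 had 3.84 ± 1.80 CPM and MAGEL2 2.61 ± 1.39 CPM per window, against 0.141 CPM for the whole megabase. NDN had 0.554 ± 0.313 and SNRPN 0.0787 ± 0.0258 CPM. SNURF had 0.986 ± 0.573 CPM, of which 98.1% lay in 1 of its 3 windows.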
